A study of Mus musculus with 73 samples.

Results

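FoxA1 and FoxA2 are forkhead transcription factors of the liver that are called pioneer factors because they bind their sites in closed chromatin and open them for other factors. Active enhancers in hepatocytes usually carry little CpG methylation, whereas most CpGs elsewhere in the genome are methylated. HNF6 (Onecut1) is a homeodomain factor that binds many liver enhancers together with FoxA proteins.

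The sites described here are FoxA sites that were already methylated in control hepatocytes and did not change much when Foxa1 and Foxa2 were lost in development. They were chosen from the deposited table of 33302 FoxA sites, each 400 bp long, by 3 conditions: a mean methylation level of 60% or more in the 2 control libraries, absence from the authors' list of hyper-methylated sites, and a developmental null mean minus control mean above -15 points. Of the 3217 sites at or above 60% in controls, 150 were in that list and 98 others were lower in the developmental nulls by 15 points or more, which left 2969 sites (8.92% of the table) in 2876 separate regions. Because both the control and the developmental null levels from whole-genome bisulfite sequencing (WGBS) chose the sites, those levels are given as a description only.

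The study compared mouse livers that lost Foxa1 and Foxa2 during development with livers that lost them in adulthood. WGBS was made from isolated hepatocytes of 2 developmental nulls (Foxa1L/L;2L/L with Alfp Cre, 8 weeks old), 2 adult nulls (Foxa1L/L;2L/L given AAV8 Cre under the hepatocyte Tbg promoter at 8 weeks, for 1 month) and 2 controls (Foxa1L/L;2L/L without Cre, 8 weeks old). The Alfp transgene combines albumin and alpha-fetoprotein regulatory sequences and acts in the fetal liver. Reduced representation bisulfite sequencing (RRBS), which reads CpG-rich fragments, covered 27 liver libraries. Livers labelled FoxA1L/L;FoxA2L/+ and FoxA1L/+;FoxA2L/+, with the floxed alleles depleted in development (2 libraries each, 8 weeks old), entered the estimate of spread but no comparison. An age series held 1 developmental double null and 1 control at each of 20 days, 8 weeks, 4 months and 6 months, with no genotype in the labels for these controls. Triple nulls lacking Foxa1, Foxa2 and Foxa3 were taken 7 days (3 libraries, 9 weeks old) and 13 days (2 libraries, 12 weeks old) after Cre, and their controls (3 and 2 libraries of the same ages) also lacked Foxa3 and received GFP. Adult double nulls (3 libraries) and GFP-injected controls (2 libraries), all 12 weeks old, were analysed after partial hepatectomy. HNF6 chromatin immunoprecipitation (ChIP) peak lists came from 2 developmental null, 2 adult null and 3 control livers. Nothing in the labels says that libraries of a group came from separate animals, so p-values measure the spread between libraries.

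The depth behind each methylation level is unknown, because the tables give fractions without coverage. Adult null levels existed for 2557 of the 2969 sites, the other 412 being on chromosomes 1 and 2, for which no adult values were used here. RRBS libraries had values at 445198 to 622668 tiles of 100 bp, of which only 84 to 160 per library lay inside the methylated sites. All levels below are percent of CpG methylation.

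The methylated sites sat near 80% in every WGBS library. Their mean level was 83.4% and 83.2% in the developmental nulls, 79.2% and 78.6% in the adult nulls, and 79.0% and 79.4% in the controls. That is 83.3 ± 0.155 in developmental nulls, 78.9 ± 0.434 in adult nulls and 79.2 ± 0.262 in controls (SD over n = 2 libraries each). Over all sites of the table the developmental nulls had 25.6 ± 0.0516, the adult nulls 20.0 ± 0.293 (28654 sites) and the controls 21.5 ± 1.27. Both controls were at 60% or more at 2709 of the 2969 sites (91.2%). Full methylation was listed for 114 and 115 sites in the developmental nulls, for 92 and 48 of the 2557 sites in the adult nulls, and for 81 and 57 sites in the controls. A level between none and all of the CpGs can come from a share of cells, of alleles or of CpGs in the site, and these cannot be told apart in bulk DNA.

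**Figure D1:**
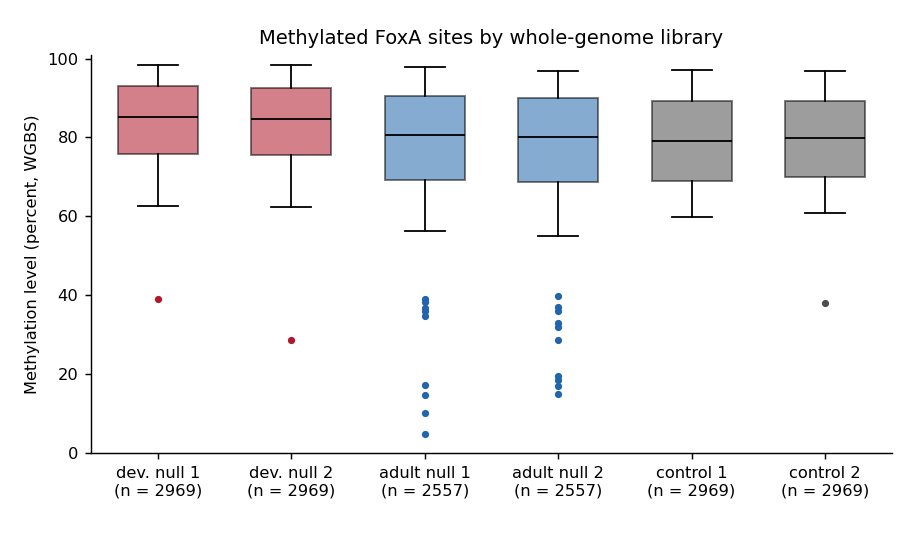
Methylation level in percent (vertical axis) of the methylated FoxA sites in each of the 6 WGBS libraries. Boxes span the quartiles with the median as a line, whiskers reach from the 5th to the 95th percentile, and points are the sites under 40%: 1 and 1 in the developmental nulls, 9 and 10 in the adult nulls, and 0 and 1 in the controls.

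Within the class, sites spread almost evenly over the range above the cut. Of the 2969 sites, 796 had a control mean of 60 to 70%, 751 of 70 to 80%, 770 of 80 to 90% and 652 of 90% or more. In the lowest of these bins the developmental nulls averaged 71.6% and the controls 65.1%, a mean difference of 6.51 points (SD over sites 7.57). In the highest bin the developmental nulls averaged 94.4% and the controls 94.1%, a difference of 0.296 points (SD over sites 3.78). The adult null minus control difference was -0.404, -0.614, 0.317 and -0.585 points in the 4 bins from low to high. The adult null averages lay within 1 point of the controls in every bin, while the developmental nulls stood above the controls in the lower bins. Since the selection used the controls and bounded the developmental difference on both sides, these averages are no independent evidence of direction.

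The sites just inside and just outside the cuts show what the selection separated. The 3 members nearest the control cut had control means of 60%, 60% and 60% (chr6:108115155-108115554, chr9:121820120-121820519 and chr3:21878274-21878673), with developmental null means of 64.2%, 71.9% and 52.0%. The 3 nearest sites left out had control means of 59.9997%, 59.9% and 59.9%, with developmental null means of 78.5%, 47.4% and 57.9%. At the other cut the members chr18:80683968-80684367, chr16:70424038-70424437 and chr19:28992621-28993020 had developmental null minus control differences of -14.9, -14.9 and -14.8 points. The 3 sites just outside it were at -15.4, -15.5 and -15.6 points. At chr19:28992621-28993020 the levels were 42.9% and 49.6% in the developmental nulls, 78.9% and 83.4% in the adult nulls, and 58.6% and 63.6% in the controls, so that the groups did not overlap. That site was picked for its developmental difference, and how many of all sites had groups without overlap was not counted.

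The adult null libraries did not enter the selection, but the controls they are set against did, so the adult null minus control values are a description. Adult nulls received AAV8 Cre at 8 weeks for 1 month, while the controls were 8 weeks old and had no Cre. In these values age and Cre virus therefore cannot be told apart from the loss of Foxa1 and Foxa2. The adult null mean lay within 10 points of the control mean at 2311 of 2557 sites (90.4%), with a median difference of 0.16 points and a 5th to 95th percentile range of -10.9 to 9.09 points. Among all 28654 sites with adult values 93.7% lay within 10 points, with a median of -1.25 points. Closeness to the control level was thus no more frequent at the methylated sites than over all sites. All sites include 6561 under 5% in controls, where a fall of 10 points cannot occur, so these shares come from unlike levels. Both adult nulls were at 60% or more at 2195 sites (85.8%), and both were under 60% at 112, under 50% at 16 and under 40% at 2. By limma with Benjamini-Hochberg adjustment over all 28654 sites, 0 of the 2557 sites passed 0.05 in adult nulls against controls, beside 0% of all sites. At an unadjusted p under 0.05 there were 178 of them (6.96%), against 8.02% of all sites.

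Adult nulls against developmental nulls gave 94 of 2557 sites past the same threshold, 90 lower and 4 higher in the adult nulls, beside 8.03% of all sites in either direction, 7.83% lower and 0.206% higher. At 89 of the 90 lower sites the developmental nulls stood above the controls, and at 85 the adult nulls stood below them. This contrast shares libraries with the selection, so nothing is read from these counts. The same holds for developmental nulls against controls, where 6 of 2969 sites passed, all higher, beside 4.17% of all sites called higher and 4.42% called in either direction.

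A few methylated sites had low levels in the adult nulls. The lowest was chr9:50308817-50309216, with 10.3% and 17.1% in the adult nulls, against 65.5% and 74.2% in the developmental nulls and 66.4% and 67.0% in the controls. Both adult nulls lay far below all the other libraries there, by -53.0 points on average from the controls (SE 4.85, limma unadjusted p = 1.08e-05, adjusted p = 0.307). The 3 other FoxA sites within 10000 bp of it had adult null means of 1.65%, 1.67% and 1.45%, and control means of 4.03%, 3.44% and 3.44%. The next lowest was chr10:91600314-91600713, with 14.8% and 19.6% in the adult nulls, 53.8% and 72.7% in the developmental nulls, and 81.3% and 46.2% in the controls. That site was also among the 3 with the widest gap between controls, beside chr5:43273332-43273731 (84.0% and 38.1%) and chr19:48958792-48959191 (95.7% and 51.6%).

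The other 4 of the 6 lowest were less even between the adult nulls. At chr4:126794155-126794554 the adult nulls had 54.0% and 18.6%, the developmental nulls 93.5% and 89.5%, and the controls 79.7% and 89.8%. At chr8:126250763-126251162 the adult nulls had 45.2% and 36.0%, the developmental nulls 83.3% and 89.0%, and the controls 65.9% and 81.1%. Adult nulls had 50.0% and 28.6% at chr8:118878112-118878511 and 48.3% and 31.9% at chr9:43072569-43072968, where controls had 69.6% and 54.5%, and 63.3% and 60.3%. In all 6 sites both adult nulls lay below both controls and both developmental nulls, and the limma adjusted p against controls was 0.307 to 0.58. That order is nearly fixed by the choice. The 6 were picked for low adult null levels among sites selected for high control levels. How many of all sites show it was not counted. At the other end, the 6 sites ranked highest were listed at 100% in both adult nulls, with developmental null means of 90.5% to 100% and control means of 91.0% to 98.6%.

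RRBS, which did not enter the selection, gave a further view of the lowest site. The tile chr9:50309001-50309100 inside chr9:50308817-50309216 had values in 24 libraries, from 0% to 67.9% with a median of 9.38%, and 19 of them were under 20%. In the age series it was 15.6% and 0% in the 4-month and 6-month nulls, and 5%, 67.9%, 0% and 25% in the controls at 20 days, 8 weeks, 4 months and 6 months. After hepatectomy the nulls had 9.09%, 0% and 0%, and the controls 37.5% and 9.68%. The day 7 triple nulls had 6.25%, 11.1% and 0%, and their controls 10.7%, 17.5% and 32.1%. Low values occurred in both genotypes of all 4 experiments, and the tile covers 100 of the 400 bp of the site. A second tile inside the site, chr9:50308901-50309000, had values in only 6 libraries. They ran from 0% to 30% with a median of 0%, and 5 of them were under 20%. These tiles were followed up because of the adult null levels, so their values are a description.

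The 2 adult null libraries differed by 20 points or more at 75 of 2557 sites. Of the 6 sites with the widest gap, 3 were on chromosome 4 and 3 on chromosome 10. At chr4:154232338-154232737 adult null 1 had 4.76% and adult null 2 had 86.6%, against 76.3% and 87.2% in the developmental nulls and 79.2% and 67.9% in the controls. At chr4:154211326-154211725, 21012 bp away, adult null 1 had 17.2% and adult null 2 had 70.9%, against 55.7% and 78.3% in the developmental nulls and 72.0% and 76.6% in the controls. The third site of that chromosome, chr4:50348457-50348856, went the other way, with 70.3% in adult null 1 and 15% in adult null 2. On chromosome 10 adult null 2 was the low library each time, with 42.7%, 46.9% and 46.8% where adult null 1 had 89.7%, 91.5% and 89.6% (chr10:19908616-19909015, chr10:8528361-8528760 and chr10:7805742-7806141). Control means at these 3 sites were 90.5%, 87.9% and 89.7%. Over all 2557 sites the 2 adult nulls differed by a median of 4.35 points, against 4.18 points between developmental nulls and 4.47 points between controls over 2969 sites.

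**Figure D2:**
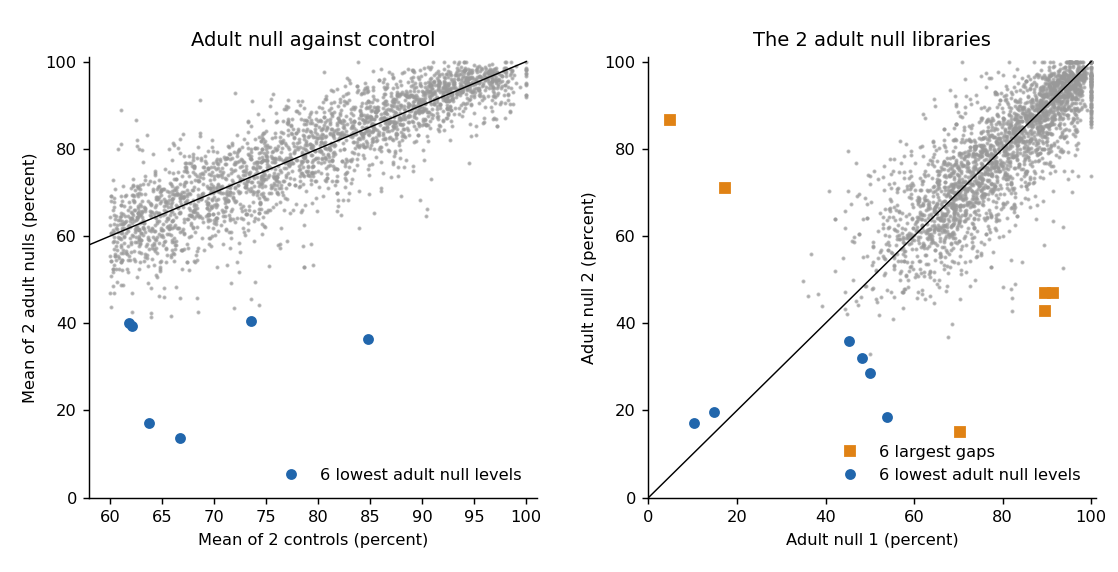
Left, mean of the 2 adult nulls against the mean of the 2 controls in percent, 1 point for each of 2557 methylated FoxA sites, with the line of equality and the 6 lowest adult null levels in blue. Right, adult null 2 against adult null 1 in percent for the same sites, with the 6 widest gaps between the 2 libraries as squares. Most sites lie along the lines, and both adult nulls were under 40% at 2 sites.

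RRBS tiles lay inside 164 of the 2969 sites (5.52%), which held 227 tiles, whereas 14.3% of all sites and 26.7% of the sites under 5% in controls held one. In the age series 64 tiles inside 52 sites were measured in all 8 libraries. The control mean of the 4 ages was 60% or more at 51 of these 64 tiles (79.7%) and under 20% at 2, with a median of 81.3%. Of all 369462 tiles measured in the same libraries 60.5% were at 60% or more in controls, with a median of 82.3%. Most tiles inside the sites were thus methylated in RRBS as well, as were most RRBS tiles of any kind. Across 75 tiles the RRBS level of the age series controls correlated with the WGBS control level of the site with r = 0.66, as a description, since tiles of a site share libraries and base composition.

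In the age series the methylated sites stood higher in developmental nulls than in controls. Their mean over the 64 tiles was 81.8%, 81.7%, 77.8% and 80.1% in the nulls at 20 days, 8 weeks, 4 months and 6 months, against 79.6%, 73.9%, 74.2% and 71.2% in the controls at the same ages. The null was above the control of its own age at every age, and the ranges of the groups overlapped through the 20-day control and the 4-month null. The nulls averaged 80.4 ± 1.86 and the controls 74.7 ± 3.53 (SD, n = 4 each), a difference of 5.62 points, whereas over all 369462 tiles measured the nulls averaged 59.4% and the controls 58.7%. No test of this mean was made, as the sites were chosen with results of the series known. The 20-day control was the highest control and the 6-month control the lowest, with 1 library per age and genotype.

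**Figure D3:**
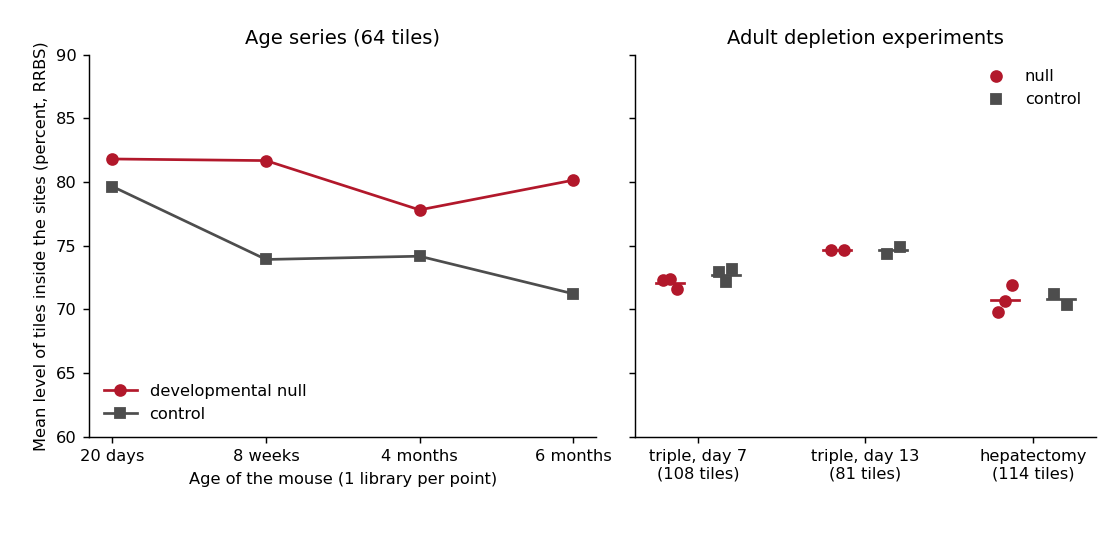
Mean RRBS level in percent of tiles inside methylated FoxA sites, 1 point per library; the vertical axis runs from 60 to 90%. Left, the age series with developmental nulls (circles) and controls (squares), where the controls had 79.6% at 20 days and 71.2% at 6 months. Right, 3 adult experiments with nulls left of controls and group means as lines, where nulls and controls differed by less than 1 point.

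Single tiles of the age series did not pass the test. By limma 0 of 64 tiles reached an adjusted p under 0.05 over all 369462 tiles, beside 0.238% of all tiles called in either direction. At an unadjusted p under 0.05 there were 12 (18.8%), all 12 higher in the nulls, against 8.77% of all tiles. The null minus control difference was above 0 at 45 of 64 tiles (70.3%), against 55.6% of all tiles, with a median of 3.59 points, against 0.28 points over all tiles. Among tiles whose level averaged 60 to 95% the median was 4.78 points at 39 tiles of the methylated sites and 0.895 points at 139498 tiles of any kind. Every null was above every control at 7 of the 64 tiles (10.9%) and below at 1 (1.56%), beside 1.93% and 0.978% of all tiles.

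The tile with the largest difference was chr9:51944001-51944100, inside the site chr9:51943865-51944264. It had 69.6%, 67.7%, 75% and 60% in the nulls at 20 days, 8 weeks, 4 months and 6 months, against 47.6%, 31.3%, 32.3% and 20.7% in the controls. The groups did not overlap, and the difference was 35.1 points (SE 9.77, limma adjusted p = 0.172). In WGBS that site averaged 74.5% in the developmental nulls, 59.0% in the adult nulls and 64.4% in the controls. The same tile had 37.5 ± 2.95 in day 7 triple nulls and 40 ± 7.47 in their controls (SD, n = 3 each). The age series difference was 37.7 points above that of day 7 there (SE 14.9, limma adjusted p = 0.876).

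At several tiles the 20-day control was as high as the nulls and the older controls were lower. The second largest difference was at chr13:104392601-104392700, with 72.7%, 78.2%, 61.1% and 63.9% in the nulls from 20 days to 6 months and 78.4%, 35.8%, 40.9% and 12.2% in the controls (27.2 points, SE 9.71, limma adjusted p = 0.353). The tile chr4:40731601-40731700 had 85.0%, 90%, 84.6% and 83.3% in the nulls, against 90%, 59.1%, 40% and 47.1% in the controls. The tile chr8:107641601-107641700 had 95.5%, 88.2%, 86.7% and 66.7% in the nulls, against 96.2%, 57.1%, 42.1% and 36.7% in the controls. These last 2 tiles were singled out after their values were seen. Without the 20-day control these 3 tiles passed limma, with differences of 39.3, 37.0 and 39.0 points and adjusted p of 0.0245, 0.0385 and 0.0429. They were 3 of 64 tiles, beside 1984 of all 375061 tiles called in that fit and 881 of 369462 with all libraries. A high 20-day control lowers the difference at these tiles, so its removal raises it. Their call therefore rests on leaving out 1 library, which is also the only control of its age.

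Other tiles differed at every age, including 20 days. At chr10:116840101-116840200 the nulls had 81.3%, 87.9%, 82.1% and 83.5%, against 72.0%, 75%, 71.2% and 65.2% in the controls, a difference of 12.8 points (SE 3.68, limma adjusted p = 0.189). The tile chr7:108560601-108560700 had 100%, 100%, 88.0% and 88.9% in the nulls, against 73.3%, 83.3%, 85.7% and 85.0% in the controls (12.4 points, SE 3.52, limma adjusted p = 0.185). Both were chosen after their values were seen, and in both every null was above every control. In the opposite direction the largest differences were -8.31 points at chr11:78695501-78695600 (SE 5.01, limma adjusted p = 0.706) and -7.74 points at chr6:72690401-72690500 (SE 6.45, limma adjusted p = 0.83), where nulls and controls overlapped.

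**Figure D4:**
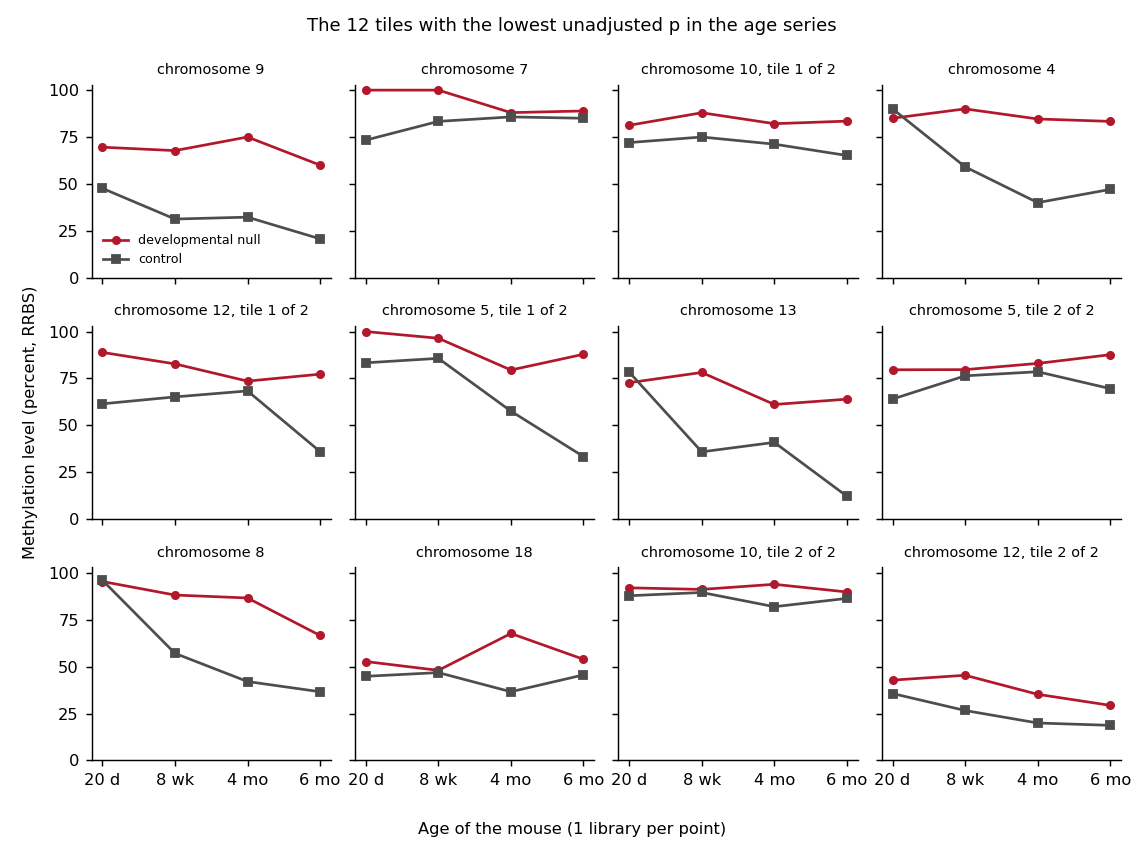
RRBS level in percent by age for the 12 tiles inside methylated FoxA sites with an unadjusted limma p under 0.05 in the age series, ordered by p, with developmental nulls as circles and controls as squares; each point is 1 library. The null mean was above the control mean in all 12, and on chromosomes 4, 8 and 13 the 20-day control was level with the nulls.

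The adult experiments gave smaller differences at the methylated sites. Day 7 triple nulls had means of 72.3%, 72.4% and 71.6% over 108 tiles, against 72.9%, 72.1% and 73.2% in their controls, or 72.1 ± 0.454 and 72.7 ± 0.537 (SD, n = 3 each). Day 13 triple nulls had 74.7% and 74.7% over 81 tiles, against 74.3% and 74.9% in their controls. After hepatectomy the double nulls had 69.8%, 70.6% and 71.9% over 114 tiles, against 71.2% and 70.4% in the controls. Nulls and controls overlapped in each of the 3 experiments, with differences of -0.639, 0.0534 and -0.0123 points.

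None of the tiles of these experiments passed limma. There were 0 of 108 at day 7, beside 0.00416% of all tiles, 0 of 81 at day 13, beside 0.00747%, and 0 of 114 after hepatectomy, beside 0.00186%. At an unadjusted p under 0.05 there were 8, 4 and 6 tiles (7.41%, 4.94% and 5.26%), against 4.10%, 4.68% and 4.67% of all tiles. The median difference was -0.32, -0.30 and -0.35 points, against 0.01, -0.01 and 0 points over all tiles. The difference of the age series minus that of day 7, day 13 or hepatectomy passed at 0 of 63, 0 of 59 and 0 of 64 tiles by limma, beside 0.0125%, 0.0068% and 0.00303% of all tiles. There 8, 9 and 4 tiles had an unadjusted p under 0.05 (12.7%, 15.3% and 6.25%), against 5.31%, 5.56% and 5.34% of all tiles.

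Large differences occurred at single tiles of the adult experiments, some with groups that did not overlap and none past limma. The tiles were picked for the largest differences of groups of 2 or 3 libraries. How many of all tiles had groups without overlap was not counted for these experiments, so nothing is read from the overlap. At day 7 the extremes were -25.8 points at chr4:41657301-41657400, with 13.3%, 21.3% and 17.6% in triple nulls and 48.3%, 27.6% and 53.8% in controls, and 20.9 points at chr8:42090201-42090300, with 80%, 100% and 94.1% in triple nulls and 62.5%, 63.2% and 85.7% in controls. Groups overlapped at the chromosome 8 tile and not at the chromosome 4 tile. They did not overlap at chr7:56042301-56042400 either, with 48.1%, 45.5% and 48.4% in triple nulls, against 68.8%, 58.1% and 84.6% in controls, a difference of -23.1 points. The limma adjusted p was 1 for all 3 tiles. At day 13 chr6:121827501-121827600 had 77.8% and 64.7% in triple nulls, against 48.9% and 53.6% in controls, a difference of 20.0 points without overlap (SE 6.33, limma adjusted p = 0.777). The tile chr12:41599901-41600000 at day 13 had 45.7% and 29.2% in triple nulls, against 68.6% and 53.5% in controls, a difference of -23.6 points. In the age series the same tile had 88.9%, 82.8%, 73.6% and 77.3% in nulls from 20 days to 6 months and 61.5%, 65.2%, 68.3% and 36.0% in controls, a difference of 22.9 points, and neither passed limma (adjusted p = 1 at day 13 and 0.338 in the age series). The tile chr4:40731601-40731700 at day 13 had 90.9% and 61.5% in triple nulls, against 42.9% and 68.4% in controls. This last tile, named above for the age series, overlapped between nulls and controls at day 13. After hepatectomy the extremes were the chr9:50309001-50309100 tile at -20.6 points (SE 13.8; -6.65 without control 1 and -34.5 without control 2) and chr12:85293701-85293800 at 17 points, with 42.9%, 50.0% and 23.5% in nulls and 20.0% and 23.5% in controls.

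Methylation was also read at growing distance from the sites. The sites were chosen for a high level and the comparison class for a low one, so the order of centre and flanks in each class follows from the choice and is no result. Among tiles measured in all 27 libraries and nearest to a methylated site, those within 200 bp of its centre averaged 81.3 ± 1.98 in developmental nulls and 75.7 ± 3.84 in age series controls (SD, n = 4 libraries each, 71 tiles). At 200 to 500 bp they averaged 75.7 ± 0.758 in nulls and 71.9 ± 1.77 in controls. At 1000 to 2000 bp they averaged 50.7 ± 0.712 in nulls and 49.7 ± 1.22 in controls. Around sites under 5% in controls the averages were 3.29 ± 0.454 in nulls and 3.18 ± 0.498 in controls within 200 bp, and 20.4 ± 0.669 in nulls and 19.8 ± 0.874 in controls at 1000 to 2000 bp. By 5000 to 10000 bp the 2 classes were closer, at 57.3% and 55.1% in nulls. Different sites supply the tiles of each distance, and RRBS reads CpG-rich fragments, so these are averages over tiles and not profiles of single sites.

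The methylated sites were more isolated than other FoxA sites. Of the 2969 sites, 387 overlapped another FoxA site (13.0%), against 40% of all sites and 47.3% of the sites under 5% in controls. No other FoxA site lay within 10000 bp of 44.1% of them, against 26.6% of all sites, and the median distance to the nearest site was 7413 bp, against 1333 bp. Their neighbours within 10000 bp were methylated sites in 14.6% of 4045 cases, against 5.76% for the neighbours of all sites. Overlapping sites share CpGs, so part of this likeness is the same measurement. Only 4 regions held 3 overlapping methylated sites, and 85 held 2. The one on chromosome 5 (chr5:63011388-63011787, chr5:63011433-63011832 and chr5:63011515-63011914) had developmental null means of 78.6%, 78.6% and 91.3%, adult null means of 60.7%, 60.7% and 86.7%, and control means of 63.0%, 63.0% and 85.4%.

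Every autosome held methylated sites, from 7.11% of the FoxA sites of chromosome 17 to 11.3% of those of chromosome 14. By chromosome the mean developmental null level ran from 81.1% to 84.8%, the adult null level from 76.8% to 80.9% and the control level from 77.8% to 81%.

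HNF6 peaks were rare at the methylated sites. Peaks overlapped 5 and 1 of the 2969 sites in the developmental null lists (0.168% and 0.0337%), 23 and 52 in the adult null lists (0.775% and 1.75%), and 47, 33 and 5 in the control lists (1.58%, 1.11% and 0.168%). In control list 1 the 95% Wilson interval was 1.19 to 2.1%, while all sites had 8.06% (7.77 to 8.36%) and the sites under 5% in controls 8.54% (7.94 to 9.19%). The interval of the methylated sites lay below that of all sites in each of the 7 lists. These intervals cover counting error only, and overlapping sites are not independent. Read from the lists, 0.160% and 0.0842% of the peaks in developmental nulls, 0.521% and 0.793% in adult nulls, and 0.763%, 0.623% and 0.282% in controls touched a methylated site, where 11.4% to 33.1% touched any FoxA site.

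Within the class the sites of 90% or more had the lowest or a joint lowest share in every list, and the order of the other bins differed between lists. In control list 1 a peak overlapped 2.39% of the sites of 60 to 70%, 2.26% of those of 70 to 80%, 0.909% of those of 80 to 90% and 0.613% of those of 90% or more. In adult null list 2 the shares were 2.26%, 2.66%, 1.17% and 0.767% in the same order of bins, and in adult null list 1 they were 0.754%, 1.46%, 0.649% and 0.153%. The developmental null lists and control list 3 held 0 to 3 sites per bin. The 75 sites with an HNF6 peak in any list averaged 78.9% in developmental nulls and 74.5% in controls, against 83.4% and 79.3% at the 2894 sites without. In adult nulls 65 of these sites averaged 71.9%, against 79.1% at 2492 sites without a peak. Control and developmental null lists came from another version of the peak caller than the adult null lists, whose peaks had median widths of 307 and 320 bp against 82 to 150 bp, so for the adult lists a share set by genotype and one set by the caller cannot be told apart.

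**Figure D5:**
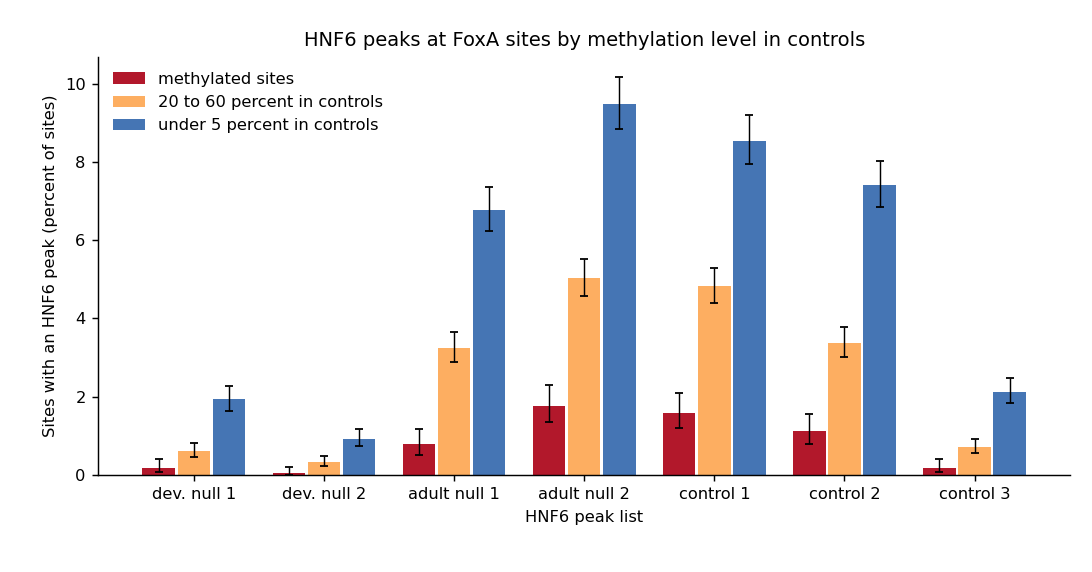
Percent of FoxA sites with an HNF6 peak (vertical axis) in each of 7 peak lists, for methylated sites, sites of 20 to 60% in controls and sites under 5% in controls, with 95% Wilson intervals as error bars. In every list the methylated sites have the lowest bar, 1.58% against 8.54% of the sites under 5% in control list 1.

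Only 4 methylated sites had a peak in all 3 control lists (0.135%), against 625 of all 33302 sites (1.88%). Folds are the authors' enrichment over input within each list. The site chr17:92274692-92275091 had a peak in all 7 lists, with folds of 13.5 and 13.7 in developmental nulls, 55.2 and 65.4 in adult nulls, and 31.5, 42.6 and 12.5 in controls. Its methylation was 85.2% and 82.1% in developmental nulls, 85.7% and 68.4% in adult nulls, and 96.3% and 78.1% in controls, and the nearest other FoxA site lay 1865210 bp away. HNF6 peaks thus occurred at a site that was methylated in all 6 WGBS libraries. The site chr18:33495317-33495716 had 95.2% and 75% in developmental nulls, 83.3% and 64.6% in adult nulls, and 77.4% and 80.6% in controls, with a peak in 6 lists. The other 2 were on chromosome 2, where chr2:55263664-55264063 had 61.0% and 67.6% in developmental nulls and 66.7% and 79.3% in controls, and chr2:45312372-45312771 had 86.7% and 96.4% in developmental nulls and 73.7% and 80.9% in controls.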

How the data were processed

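The WGBS and RRBS tables were deposited as methylation fractions between 0 and 1 and were multiplied by 100. Per the submitters' processing notes, the tools were Trim Galore 0.3.3 and BSMAP 2.74 and the build was mm9, which all positions here use. The step from reads to sites or tiles is not stated there, and the tables hold no coverage. A column of the adult table headed developmental null 1 equalled control 2 at 100% of common sites and was not used; control 1 was identical in both tables. Peak lists were called per library against input with MACS 2.1.1 (developmental null and control) and MACS 1.4.3 (adult null), per the file headers, and their fold enrichment ratio is the authors' deposited value. ChIP libraries had 16760874 to 30469386 filtered tags, per the file headers.

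A tile counted when it lay wholly inside a site, and a peak when it overlapped by 1 bp. All tiles or sites measured in every library of a comparison were tested with limma 3.58.1 in R 4.3.3 on percent levels, with a variance trend, 1 spread over all RRBS groups (or the WGBS libraries), and Benjamini-Hochberg adjustment at 0.05. The fit was tested on simulated data. Other values came from Python 3.11.15 with pandas 2.3.3, and Wilson intervals from scipy 1.17.1. Named sites were the 6 lowest, 6 highest and 6 most uneven in the adult nulls, the 3 most uneven in controls, those at the cuts, those with HNF6 in all control lists and the regions of most overlap; named tiles were the 2 largest differences each way per comparison. The sites, lists and rules were chosen with earlier results of these data known. Libraries of the same age or number did not all reach a correlation of 0.1 in the check described under the dependence on processing. No block therefore entered the tests above, and differences of age are part of the spread in the age series. HNF4A and H3K27ac ChIP was not analysed here, and sites were given no gene names because the gene tables at hand were of another build.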

Additional observations from a re-analysis of the deposited data

How the results depend on the processing

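Depth per level is unknown, so the planned coverage minimum was not run, and adult null against developmental null has no value from 1 table alone. The count of 0 tiles held under every alternative at day 7 and after hepatectomy. In the age series it was 0 except for 1 of 108 tiles (chr9:63823501-63823600) with tiles measured in at least 2 libraries of each group, beside 1081 of all 508098. It was 0 to 3 when libraries were left out, and 3 of 64 only without the 20-day control, beside 1984 of all 375061. At day 13 it was 0 under every alternative that left out no library. Leaving out 1 library there leaves 1 library in a group, so no count is given for those fits. Without triple null 1 the tile chr10:86344701-86344800 differed by -33.2 points, with 1 triple null library left. Sites called in developmental nulls against controls (6) numbered 0 with a difference of 20 points. The selection fixed that 0, since it left no site with a difference of 20 points or more in either direction. The count was 1 on the logit scale, beside 1322 of all 33302 sites. At levels of 5 to 95% it was 105 of 2686, beside 3378 of all 25459. With both tables joined it was 50 of 2557, beside 2218 of all 28654. Adult nulls against controls gave 1 of 2351 sites at levels of 5 to 95%, beside 4 of all 20469. Adult nulls against developmental nulls (94) gave 56 with 20 points, 179 at 5 to 95%, and 3 to 10 without 1 library: 10 and 6 without developmental null 1 or 2, and 9 and 3 without adult null 1 or 2. Over all sites, adult nulls against developmental nulls gave 2302 of 28654, 1932 with 20 points and 3723 of 19574 at 5 to 95%. The 179 at 5 to 95% were among 2276 methylated sites tested. Calls over all sites fell as well in the fits without 1 library. Each of those fits leaves 1 library in a group, so nothing is read from their counts. Over all tiles of the age series, 881 calls became 0 with the spread of its 2 groups only, 374 with 20 points and 1984 without the 20-day control. Beyond the count fixed by the selection, the causes were not tested.

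With a replicate block, sites called numbered 0 in developmental nulls against controls, beside 1012 of all 33302. In adult nulls against developmental nulls they numbered 56, beside 1618 of all 28654. No tile inside the sites was called in any RRBS comparison (3167 of all tiles in the age series). Age series libraries of the same age had deviations correlated at 0.366, 0.06, 0.109 and 0.149 from 20 days to 6 months, and the 4-month null correlated more with the 6-month control (0.13). The other 3 nulls correlated best with the control of their age. As 1 of the 4 same-age values was under 0.1, the libraries were not taken as pairs, which age alone does not make them. Without a block, differences of age count as spread between libraries in the age series.

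With medians the developmental null, adult null and control levels were 85.0%, 80.3% and 79.5%; at control means of 70% or more 87.6%, 84.1% and 84.3%; and with each control at 60% or more 84.6%, 80.5% and 80.7%. Null minus control in RRBS was 0.973 points after hepatectomy with medians, and at day 13 -2.28 points with medians and -0.433 with each control at 60% or more. In the age series it stayed between 3.37 and 5.70 points, and between 4.45 and 7.25 points without 1 library.

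HNF6 shares with peak centres inside the site were 0.472% and 1.28% in the adult null lists. With peaks at or above their list's median fold they were 0.404% and 0.842% in the adult null lists and 0.909%, 0.640% and 0.0674% in the control lists. Control list 2 had 0.782% at control means of 70% or more.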

Other observations

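Livers that kept 1 or 2 of their Foxa1 and Foxa2 alleles are in neither group of any comparison above. They do enter the shared estimate of spread and the tiles required in all 27 libraries. Over the 53 tiles inside methylated FoxA sites that were measured in all 27 RRBS libraries, the 2 livers labelled FoxA1L/L;FoxA2L/+ depleted in development had means of 70.9% and 76.7%, and the 2 labelled FoxA1L/+;FoxA2L/+ had 75.7% and 75.8%, all at 8 weeks of age. On the same tiles the age series had 80.4 ± 1.76 in developmental double nulls and 73.9 ± 3.91 in controls (SD, n = 4 each). Over all 331959 tiles measured in every library these groups had 54.9%, 55%, 57.1% and 56.5%. At the tile chr9:51944001-51944100 the FoxA1L/L;FoxA2L/+ livers had 36.8 ± 44.2 and the FoxA1L/+;FoxA2L/+ livers 29.6 ± 23.0 (SD, n = 2 each), so that no direction can be read from them.

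Single tiles of the methylated sites varied widely over the 27 libraries, which differ in genotype, age and treatment. No range within a genotype was taken, so differences between groups are part of these ranges. The range over the 27 libraries had a median of 30.0 points at the 53 tiles and reached 40 points or more at 16 of them. Among tiles averaging 60 to 95% the median range was 28.6 points at 33 tiles of the methylated sites, against 22.7 points at 146476 tiles of any kind. Mean levels over all libraries ran from 6.6% to 97.3%, with 41 of the 53 tiles at 60% or more and 4 under 40%. The part that coverage has in these ranges was not tested, since the tables give none.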
